A study of Homo sapiens with 6 samples.

Results

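The MYC and PVT1 domain is a 3 Mb stretch of the long arm of human chromosome 8, taken here as chr8:127500000-130500000 of the hg19 build. It was examined for 2 forms of the histone variant H2A.Z. Peaks of ubiquitylated and of total H2A.Z were merged where they overlapped or touched, and a merged region belonged to the domain when its midpoint lay inside. This rule gave 82 of the 198179 merged regions of the whole series. By position, 34 lay in the flank before MYC, 7 in the MYC gene window (chr8:128745000-128755000), 5 between the MYC and PVT1 windows, 3 in the PVT1 window (chr8:128800000-129120000) and 33 in the flank after PVT1. The members were chosen by the positions of called peaks in these same libraries, so counts and densities below are descriptions. The regions nearest the borders were chr8:127568152-127570703 and chr8:130492761-130492934 on the inside, and chr8:127421786-127421949 and chr8:130580219-130580446 on the outside. None of these 4 was in a differential list.

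The 6 chromatin immunoprecipitation sequencing (ChIP-seq) samples came from HEK293T, an established human embryonic kidney cell line, and formed 3 groups of 2. All groups had the same transient transfection, with plasmids for H2A.Z-1 fused at its C-terminus to Flag and the biotin ligase BirA, and for ubiquitin with an N-terminal AviTag, at 3 parts to 1. Chromatin was harvested after 48 hours and digested with micrococcal nuclease. Streptavidin recovered nucleosomes with biotinylated ubiquitin (ubiquitylated H2A.Z), the Flag antibody recovered all nucleosomes with the tagged histone (total H2A.Z), and an antibody against histone H3 was used for the remaining group. The measurements therefore concern a tagged, plasmid-expressed histone in a cell population. The labels do not say whether replicates were separate cultures.

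MYC encodes a basic helix-loop-helix transcription factor that pairs with MAX and drives cell growth and proliferation. The gene lies in a stretch with few other protein-coding genes, and enhancers scattered over long distances on both sides of it are used in different tissues. PVT1, the next gene on the same strand, gives a long non-coding RNA that also hosts several microRNAs, and its promoter can compete with that of MYC for the same enhancers. H2A.Z typically flanks the start sites of active and poised genes and marks enhancers, and its monoubiquitylated form has been linked to silent chromatin. In the RefSeq gene order (GRCh38.p14, used for names and order only), LRATD2 (also called FAM84B), PCAT1, CASC8, POU5F1B and CASC11 precede MYC in this order. PVT1, MIR1204 to MIR1208, LINC00824 and CCDC26 follow it. Regions outside the MYC and PVT1 windows were not assigned to genes, since no hg19 annotation was used here.

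The deposited lists give a single value for each peak or region, with nothing for the separate libraries. The read depth behind a region is therefore unknown and no SD can be given. Replicate spread enters only through the authors' irreproducible discovery rate (IDR, lower for peaks that repeat better between replicates, at most 0.05 here; local or global kind not stated) and through their false discovery rate (FDR, at most 0.05 for a differential region). Fold changes compare ubiquitylated with total H2A.Z and were read as log2 values. They depend on how the authors scaled the libraries to each other, a step not given in the sources used here. Streptavidin and Flag pull-downs differ in reagent, and a difference between reagents cannot be told apart from one in ubiquitylation. Wilson 95% intervals on shares cover counting error only, and neighbouring regions are not independent.

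The MYC gene window was the densest part of the domain, and it was the only segment with regions higher in total H2A.Z. It held 7 regions within 6.04 kb, which corresponds to 700.0 per Mb against 27.3 per Mb in the domain as a whole. These covered 36.4% of the 10 kb window, against 0.985% of the domain. For scale, 4094 (4.67%) of the 87643 fixed 10 kb tiles of the genome that held any region held 7 or more. The window contained 6 peaks of total and 4 of ubiquitylated H2A.Z.

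The best repeating peaks of the domain lay in 1 narrow region of the MYC window, chr8:128747800-128748051, 252 bp wide. Its total H2A.Z peak had an IDR of 1.7e-06 and ranked 2 of 143756 in the whole list. Its ubiquitylated peak had an IDR of 2.1e-07 and ranked 187 of 143617. The peaks of the 2 lists had nearly the same borders, with a Jaccard index (shared over joint length) of 0.984, and the region was in neither differential list. Both forms were thus called at this position with high repeatability, and no difference between them passed the authors' threshold.

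On either side of this region, total H2A.Z had further peaks where ubiquitylated H2A.Z had none. Just before it, chr8:128747143-128747602 held a total H2A.Z peak alone (IDR 0.032), and the authors' deposited table gave it a log2 fold change of -0.72 (FDR 0.015). After it came chr8:128748242-128748444, 203 bp wide, again with a total H2A.Z peak alone (IDR 0.00096) but in neither differential list. The next region, chr8:128748568-128748884, held peaks of both forms with IDR values of 0.0023 (ubiquitylated) and 0.00085 (total), and it was not differential either. Peak presence and the differential test therefore did not coincide at each of these regions.

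Further along the window, total H2A.Z was higher in a pair of adjacent regions 265 bp apart. The first, chr8:128749142-128749696, held a total H2A.Z peak alone (IDR 0.0071), with a log2 fold change of -0.70 and an FDR of 0.0011 in the authors' deposited table. The second, chr8:128749962-128751322, was the widest of the window at 1361 bp and held wide peaks of both lists. Its IDR was 6.5e-05 in the ubiquitylated and 2.5e-05 in the total list, where it ranked 1390. In the authors' deposited table its log2 fold change was -0.52 (FDR 0.00046), that is 1.43-fold higher in total H2A.Z. This was the only region with peaks of both lists that was differential anywhere in the domain.

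**Figure D1:**
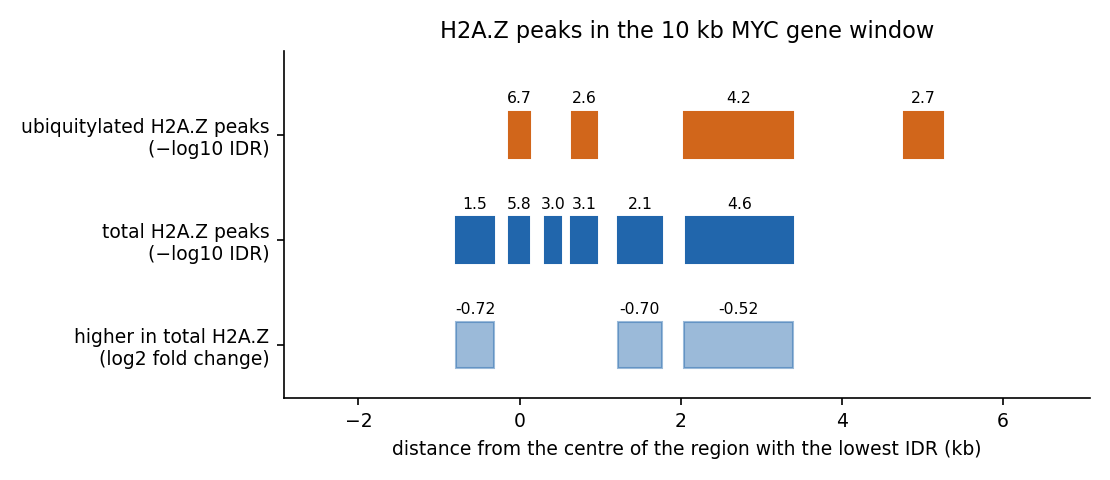
Peaks in the MYC gene window by distance in kb from the centre of the region with the lowest IDR; each box is 1 peak (orange, ubiquitylated; blue, total H2A.Z) with its −log10 IDR above it, and the lowest row shows the 3 regions higher in total H2A.Z with the authors' log2 fold change. The 6 total H2A.Z peaks crowd the first part of the cluster, and the last region holds a ubiquitylated peak alone.

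The last region of the window, chr8:128752691-128753185, was of the opposite kind, with a ubiquitylated peak alone (495 bp, IDR 0.0021). It was in neither differential list. Along the window, regions with total H2A.Z alone alternated with regions of both forms, and only this last one held ubiquitylated H2A.Z alone. In all, 3 of 7 regions (42.9%, Wilson interval 15.8 to 74.95%) were higher in total H2A.Z, where 12.1% of all regions tested were, and 0 of 7 (0 to 35.4%) were higher in ubiquitylated H2A.Z, where 9.39% of all regions were. At an FDR of at most 0.01 the regions higher in total H2A.Z numbered 2 of 7, where 7.21% of all regions passed. None of the 3 changes reached 2-fold. Across all regions 2.39% were higher in total H2A.Z by at least that much.

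Outside the MYC window the differential regions all pointed the other way. Of the other 75 regions, 14 (18.7%, Wilson interval 11.5 to 28.9%) were higher in ubiquitylated H2A.Z and 0 (0 to 4.87%) were higher in total H2A.Z. Chromosome 8 outside the domain had 13.6% (12.8 to 14.4%) and 9.26% (8.60 to 9.96%) of its 6989 regions in these directions. The intervals for the ubiquitylated direction overlap, while those for the total direction do not. The latter holds only with the MYC window left out, which removes every region of the domain higher in total H2A.Z. For the whole domain that share was 3.66% (1.25 to 10.2%), and its interval overlaps that of the rest of the chromosome. All these intervals take regions as independent, and no test was made. At an FDR of at most 0.01, 9 regions outside the window remained higher in ubiquitylated H2A.Z, where 5.26% of all regions were. In both directions together 17 of the 82 regions of the domain were differential, where 21.5% of all regions were. In order along the chromosome these were 6 higher in ubiquitylated, then the 3 higher in total H2A.Z, then 8 higher in ubiquitylated H2A.Z. The change of direction was close to the gene on its far side, where 11.0 kb separated the last region higher in total from the next one higher in ubiquitylated H2A.Z. On the near side the distance was 64.3 kb.

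**Figure D2:**
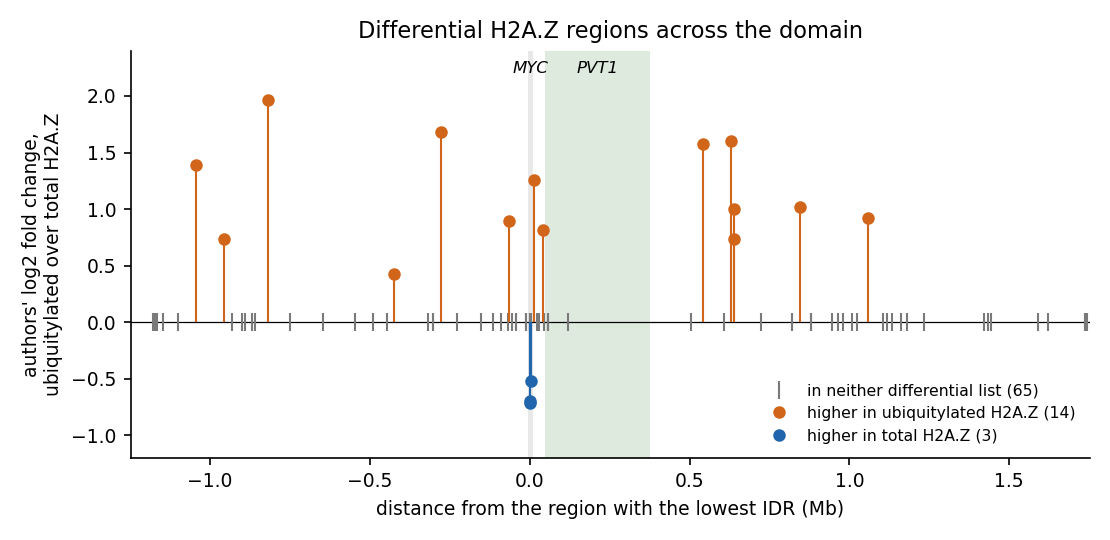
The authors' log2 fold change of ubiquitylated over total H2A.Z (vertical axis) for the 17 differential regions, by distance in Mb from the region with the lowest IDR; ticks on the zero line are the 65 regions in neither differential list, which have no deposited fold change, and shading marks the MYC and PVT1 windows. The 3 blue points below zero lie in the MYC window and the 14 orange points above zero lie outside it.

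All 14 regions higher in ubiquitylated H2A.Z held a ubiquitylated peak alone, as did 13604 of the 18614 regions with that call in the whole series. The 14 made up 35.0% (22.1 to 50.5%) of the 40 regions of that kind in the domain. Such calls were 23.8% of regions of that kind in the whole series and 27.3% (25.6 to 29.1%) on chromosome 8 outside the domain. The 26 others of this kind were not differential, so a missing total H2A.Z peak was mostly not matched by a measured difference. Likewise, of the 10 regions with a total H2A.Z peak alone, 2 were higher in total H2A.Z, both in the MYC window, where 30.5% of such regions were in the whole series. None of the 29 regions outside the MYC window with peaks of both lists was differential, beside 5.97% of such regions in the whole series towards ubiquitylated and 7.52% towards total H2A.Z. The 14 regions were narrow, from 161 to 498 bp with a median of 264.5 bp; regions of the same kind and call had a median of 415 bp in the whole series. By the authors' deposited table the smallest log2 fold change among them was 0.43, the median 1.01 and the largest 1.96, beside a median of 0.76 for regions of the same kind and call in the whole series. Both medians cover only regions that passed the FDR and were not matched for width. Whether width bears on the fold changes was not tested. Changes of at least 2-fold towards ubiquitylated H2A.Z numbered 8 of 82, or 9.76%, where 1.47% of all regions had one. On chromosome 8 outside the domain, 161 of 6989 regions had one. Towards total H2A.Z the domain had 0 such changes, where 2.39% of all regions had one.

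The space between the MYC and PVT1 windows, 45 kb long, held 5 regions, and none had peaks of both forms. The first, chr8:128762280-128762600, lay 9.09 kb after the last MYC region and held a ubiquitylated peak alone (IDR 0.00090), with a log2 fold change of 1.26 (FDR 9.5e-06) in the authors' deposited table. A weaker call came from chr8:128789647-128789926 (IDR 0.0038), with 0.81 and an FDR of 0.042 in the authors' deposited table. The remaining regions were in neither differential list: chr8:128771347-128771588 held a ubiquitylated peak, and chr8:128776278-128776492 and chr8:128793805-128793965 held total H2A.Z peaks. Regions with one form alone were thus interspersed here within a short distance.

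The PVT1 window was the sparsest segment. Its 320 kb held 3 regions, or 9.38 per Mb, and 0 of 3 were differential (0 to 56.1% in either direction), beside 9.39% of all regions towards ubiquitylated and 12.1% towards total H2A.Z. With 3 regions, 0 calls is near that background. Both forms peaked together near the start of the window, at chr8:128806005-128806644, 640 bp wide. There the IDR was 4.7e-06 in the ubiquitylated list (rank 2768) and 8.9e-05 in the total list (rank 2716), so this pair stood within the best 2% of both lists (1.93% and 1.89%). A ubiquitylated peak alone lay 158 bp before it, at chr8:128805511-128805846 (336 bp, IDR 3.7e-05). The only other region, chr8:128866223-128866652, also held a ubiquitylated peak alone (430 bp, IDR 0.0014).

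Beyond that region no peak of either list was found for 385.7 kb, the longest interval without a region in the domain. It took up the last 253.3 kb of the PVT1 window and reached into the flank. The next longest was 187.1 kb, and the median interval was 20.5 kb. On the whole of chromosome 8, 16 of 7070 intervals between neighbouring regions were at least as long, and 313 of 198155 in the genome. H2A.Z peaks of PVT1 were thus found at the front of the window and not over most of its length. Because read depth is unknown, H2A.Z there may lie below what these lists could detect.

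**Figure D3:**
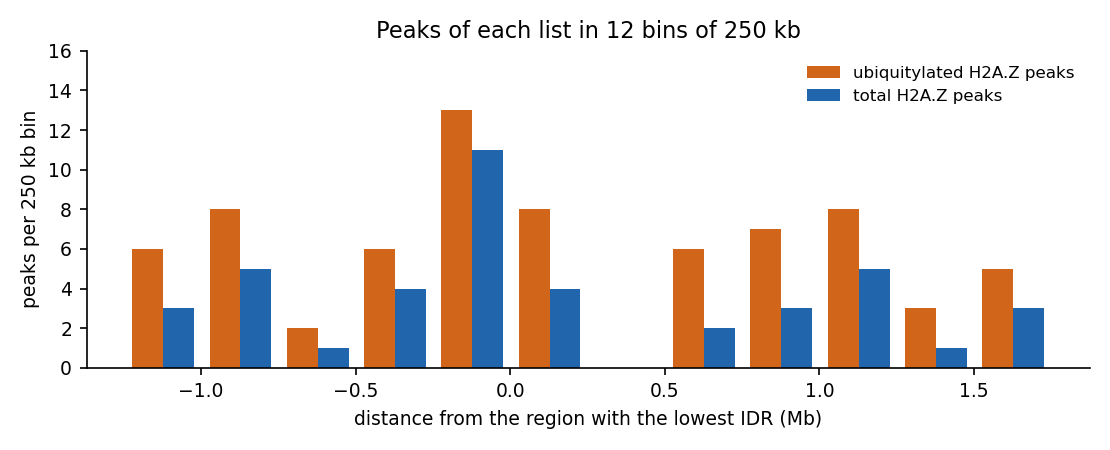
Peaks of ubiquitylated (orange) and total (blue) H2A.Z in the 12 bins of 250 kb, by distance in Mb from the region with the lowest IDR. The bin that ends at 128.75 Mb, within the MYC window, holds 13 and 11 peaks, the bin from 129.0 to 129.25 Mb holds none, and ubiquitylated peaks outnumber total H2A.Z peaks in each of the other 11 bins.

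The flank before MYC held 34 regions in 1.245 Mb, at 27.3 per Mb. Regions with peaks of both forms were the commonest kind at 18 of 34 (52.9%, 36.7 to 68.5%), followed by 15 with ubiquitylated peaks alone, and 1 region, chr8:128302088-128302292, held a total H2A.Z peak alone. The widest region of the domain was its first, chr8:127568152-127570703, at 2552 bp. It held peaks of both forms (IDR 0.00056 in the ubiquitylated list, 0.00014 in the other) and was in neither differential list. The next in width were chr8:128428048-128429178 (1131 bp) and chr8:128691526-128692293 (768 bp), also with peaks of both forms and not differential. The 3 widest regions of this flank thus held both forms. In the whole series too, regions with both forms were wider, with a median of 425 bp. The medians there were 276 bp for ubiquitylated peaks alone and 251 bp for total H2A.Z peaks alone.

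The 6 differential regions of this flank, 17.6% (8.35 to 33.5%) of its 34, were narrower and scattered. The share higher in ubiquitylated H2A.Z was 9.39% over all regions and 13.6% on chromosome 8 outside the domain. The region of lowest FDR in the domain was chr8:127929162-127929389, 228 bp wide. Its ubiquitylated peak had an IDR of 2.1e-06 (rank 1871), and the authors' deposited table gave it a log2 fold change of 1.96, that is 3.90-fold, with an FDR of 6.7e-08. Next by FDR in the authors' deposited table were chr8:128469533-128469693 (1.68, FDR 1.4e-05) and chr8:127704283-127704482 (1.39, FDR 0.0018). The others in the authors' deposited table were chr8:128682660-128682833 (0.90, FDR 0.017), chr8:127792018-127792266 (0.74, FDR 0.044) and chr8:128323867-128324364 (0.43, FDR 0.044). A low IDR and a differential call did not always go together. The ubiquitylated peaks of chr8:128658463-128658734 and chr8:128099388-128099679 had IDR values of 3.7e-05 and 4.2e-05 and were not differential. Conversely, the differential region chr8:127704283-127704482 rested on a peak with an IDR of 0.043. Among total H2A.Z peaks of this flank, chr8:127600797-127601127 had the lowest IDR (0.00035) after the widest region, and its ubiquitylated partner had 0.0057.

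The flank after PVT1 held 33 regions in 1.38 Mb, at 23.9 per Mb. Here ubiquitylated peaks alone were the commonest kind, 19 of 33 (57.6%, 40.8 to 72.8%), with 10 regions holding both forms and 4 total H2A.Z alone. The shares of regions with both forms in the flanks, 52.9% before and 30.3% (17.4 to 47.3%) after, had overlapping intervals. The 6 differential regions here all pointed to ubiquitylated H2A.Z and were 18.2% (8.61 to 34.4%) of the 33. That share was 9.39% over all regions and 13.6% on chromosome 8 outside the domain. The 6 began with chr8:129288688-129288901 (log2 fold change 1.58, FDR 8.1e-05 in the authors' deposited table) and chr8:129377386-129377593 (1.60, FDR 5.9e-05). A pair only 135 bp apart followed, chr8:129385325-129385612 (0.74, FDR 0.022 in the authors' deposited table) and chr8:129385748-129386178 (1.00, FDR 0.00048). The last in the authors' deposited table were chr8:129594192-129594474 (1.02, FDR 0.0034) and chr8:129806767-129807062 (0.92, FDR 0.0035). After the latter the final 693 kb of the domain held no differential region.

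The 3 widest regions of this flank also held both forms, the kind with the highest median width in the whole series. They were chr8:129756880-129757592 (713 bp), chr8:129772164-129772840 (677 bp) and chr8:129909238-129909740 (503 bp), all in neither differential list. The last of them joined peaks of 488 and 424 bp, while a total H2A.Z peak alone in its region was 500 bp wide. The ubiquitylated peak of lowest IDR here, chr8:130483840-130484014 (0.00010), had no total H2A.Z partner. The total H2A.Z peak of lowest IDR lay in chr8:129982518-129982730 (0.00066), where the ubiquitylated peak had a much higher value of 0.012. Next came the total H2A.Z peaks in chr8:129909238-129909740 (0.00092) and chr8:130486193-130486461 (0.0010). No peak of this flank had an IDR as low as those of the shared region at the start of PVT1, in either list.

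**Figure D4:**
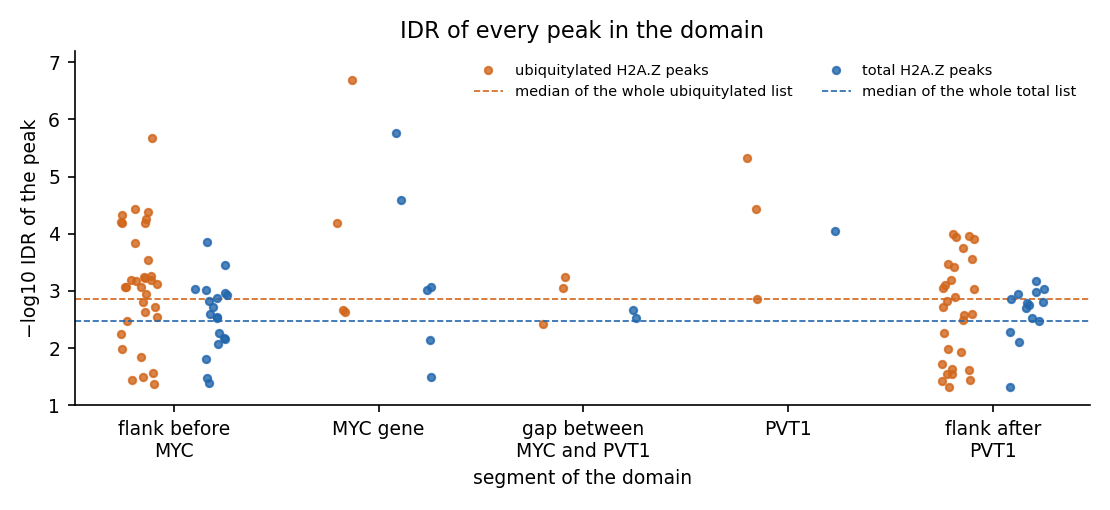
−log10 IDR of each of the 72 ubiquitylated (orange) and 42 total (blue) H2A.Z peaks by segment, with dashed lines at the median of each whole list; higher means better repeated between replicates. The highest points of both colours lie in the MYC window, and the PVT1 window follows in the total list.

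Over the domain as a whole the ubiquitylated list was the fuller one. It had 72 peaks against 42 of total H2A.Z, a ratio of 1.71, beside 1.19 on the rest of chromosome 8 and 0.999 in the whole series. In the MYC window the ratio was 0.667. Regions with a ubiquitylated peak alone were 48.8% (38.3 to 59.4%) of the domain, against 36.3% (35.2 to 37.4%) of chromosome 8 outside it. Regions with a total H2A.Z peak alone were 12.2% (6.76 to 21.0%), against 23.7% (22.7 to 24.7%). The share with both forms, 39.0% (29.2 to 49.8%), was close to the 40.0% (38.8 to 41.1%) of the rest of the chromosome. Intervals were thus apart for each form alone, only just so for ubiquitylated peaks alone, and overlapped for both forms together. They take regions as independent, and the members came from these same peak lists. No test was made of these differences.

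**Figure D5:**
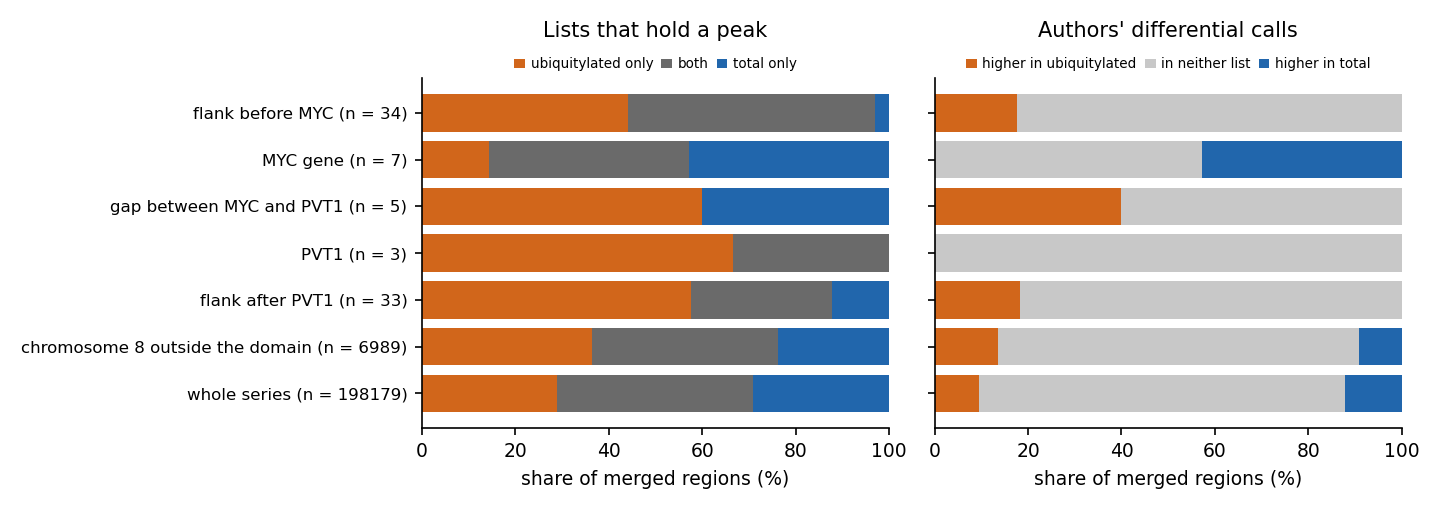
Share of merged regions (%) by segment and for chromosome 8 outside the domain and the whole series: on the left by which list holds a peak, on the right by the authors' differential call. The MYC window has the 42.9% of regions higher in total H2A.Z, and blue is missing from the right-hand bars of the other segments of the domain.

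Total H2A.Z peaks of the domain were few but repeated well. Of the 42, 30 (71.4%, 56.4 to 82.8%) had an IDR below the median of their list (0.0033), with at least as many below as above it in every segment. Of the 72 ubiquitylated peaks, 40 (55.6%, 44.1 to 66.5%) were below the median of theirs (0.0014). By segment this was 21 of 33 in the flank before MYC and 13 of 29 in the flank after PVT1. Regions were somewhat narrow, with a median of 272 bp against 315 bp on the rest of chromosome 8. With 82 regions, the domain was sparser than the median of 117 (quartiles 59 and 261) among the 993 fixed 3 Mb tiles of the genome that held any region.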

How the data were processed

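ChIP-seq of HEK293T cells was analysed from the peak and region lists the authors deposited, in hg19 coordinates. Bowtie, SAMtools, MACS2 and edgeR are named in the submitters' processing notes; neither settings nor versions are stated there. The 2 peak lists hold an IDR per peak, deposited by the authors and read as such from the file names and a maximum of 0.05; whether it is local (a probability) or global (like a q-value) is not stated. The 2 differential lists hold the authors' FDR and fold changes, read as log2 because edgeR writes that scale; the base is not stated. Both peak lists are also named in the H3 samples' labels; what part H3 had in calling them is not stated, and H3 was not compared here.

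Starts were raised by 1 base. Peaks of both lists were merged where they overlapped or touched, and the 42574 differential regions all matched a merged region. Segments followed midpoints. Shares carry Wilson 95% intervals; no model was fitted and no test was made over the members. The merging and the segment counts were tested on simulated intervals. Regions named were every one in the MYC window and the gap, and elsewhere the 5 of lowest FDR per direction, the 3 widest and the 3 of lowest IDR per list. Named outside that rule, after their values were seen, were the remaining differential region of each flank, the border regions and the single total-only region before MYC. The members, segments and lists were chosen with earlier results of these data known. Tables were made with pandas 2.3.3 and numpy 2.4.6 in Python 3.11.15, intervals with scipy 1.17.1 and figures with matplotlib 3.10.9. Promoter and microRNA sequences are not reported here.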

Additional observations from a re-analysis of the deposited data

How the results depend on the processing

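No paired analysis was possible because the lists hold no values per library; leaving out single replicates was not run, for want of such values. Of 68 alternative values for 24 results, 23 concern shares of 0 that a subset of the regions can only leave at 0. Of the other 45, 37 stayed within 1.5 times the count or within the Wilson interval of the share. The numbers of regions were 67 (domain), 6 (MYC window) and 3 (PVT1 window) with an IDR of at most 0.01. They were 82, 7 and 3 when any overlap sufficed or when peaks up to 100 bp apart were merged, and widening the MYC window by 5 kb on each side left 7. These last settings could not change a count, although they are among the 37 that stayed. The closest neighbouring regions of the domain were 123 bp apart, and peaks of the 2 lists sharing a region always overlapped (lowest Jaccard index 0.204). No region lay in the 5 kb on either side of the MYC window. Merging over longer distances was not run. With changes of at least 2-fold, the share higher in ubiquitylated H2A.Z fell from 17.1% to 9.76% in the domain and from 18.7% to 10.7% outside the MYC window. The share higher in total H2A.Z was then 0% in the domain and 0% in the MYC window, from 3.66% and 42.9%. With regions holding peaks of both lists only, the share higher in ubiquitylated H2A.Z was 0% in the domain, 0% outside the MYC window and 0% in each flank, since all 14 such regions held a ubiquitylated peak alone. With an FDR of at most 0.01, 2 of the 3 regions higher in total H2A.Z (both in the MYC window) and 9 of the 14 higher in ubiquitylated H2A.Z passed, where 7.21% and 5.26% of all regions did. The 50% overlap rule left the share with both forms at 32.9%. Limiting the calls to regions with both forms gave no value in the gap between MYC and PVT1, which held none. Read depth is unknown, so an absent peak sets no upper limit on H2A.Z.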

Other observations

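Close neighbours were concentrated in the MYC window. Of the 8 intervals under 1 kb between neighbouring regions of the domain, 5 lay there, from 123 to 265 bp long. Among these 5 pairs of neighbours, 1 pair was higher in total H2A.Z on both sides, 2 pairs joined such a region to one in neither differential list, and 2 pairs had no differential member. Outside the window, the pair at the start of PVT1 was not differential, the pair in the flank after PVT1 was higher in ubiquitylated H2A.Z at both members, and the pair before MYC, 878 bp apart, was not differential.

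Where both forms peaked, their peaks mostly coincided. In the 32 regions of the domain with 1 peak of each list, the median Jaccard index was 0.855, beside 0.849 over 77834 such regions in the whole series. The lowest was 0.204.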
